A study of Mus musculus with 8 samples.

Results

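The genes described here were 31 astrocyte genes, 22 of them markers of resting astrocyte identity and 9 of them genes that rise in reactive astrocytes. They were chosen by symbol, and each was represented by its brightest probe in the sample channel, out of 15090 named genes with a tested probe. Their expression was measured in the hippocampus of 9-week-old, individually housed male Muta Mouse, a transgenic strain carrying a bacterial reporter gene for mutation assays. The 4 BaP-exposed mice had received benzo[a]pyrene (BaP, a polycyclic aromatic hydrocarbon) in olive oil by oral gavage, on 3 successive days at a daily dose of 70 mg/kg bw, and the 4 Control mice had received the vehicle. Each group held 5 dosed mice, of which 4 were hybridized. Tissue was taken 24 hr after the last dose, and the RNA of each mouse was hybridized in Cy5 against one universal mouse reference RNA in Cy3.

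Astrocytes take up glutamate, GABA and potassium released by neurons, convert glutamate to glutamine, share ions and metabolites through gap junctions, and wrap blood vessels with end-feet rich in water channels. The genes for these tasks mark the resting cell. After injury or inflammation astrocytes become reactive: they build up the intermediate filament protein GFAP, express receptors for cytokines of the interleukin-6 family, and secrete acute-phase and matrix-modifying proteins. The hippocampus is a bulk tissue here, and a lower signal from fewer cells of a type and from less RNA per cell cannot be told apart.

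All 8 arrays were on 1 slide. On 56.6 to 67.4% of spots the Cy5 signal was well above background, and array Control 1 had 1483 outlier spots against 310 to 371 on the others. Groups were taken from the sample titles. For the 4 arrays of the second slide row (Control 3, Control 4, BaP 3 and BaP 4) another label, the source name, gives the opposite group, so results are also given for the first row alone, which leaves these 4 arrays out. Of 32600 probes tested, 3 were called lower in BaP-exposed mice (0.0092%) and 0 higher (0%), a call being an adjusted p-value of at most 0.05 in limma with a difference of at least 1.5-fold. With the groups of the source names 0 probes were called. The labeled tissue carried its markers: all 9 tested hippocampal neuron markers and all 10 neuron markers were above the reference in all 8 mice. Of the hippocampal neuron markers 8 of 9 were on average higher after BaP (median difference 0.244 on the log2 scale), and of the choroid plexus markers 12 of 12, with a median of 0.835 and 0 higher without overlap, against 2.72% of all named genes. The exception among the hippocampal markers, *Grik4*, was lower without overlap (-0.64, adjusted p = 0.368 in limma), and 6 of the 10 neuron markers were lower, with a median of -0.051. The part of these lists in the astrocyte values was not tested. The red cell list (8 tested genes) averaged 4.05 to 4.20 on the log2 scale in Control and 3.26 to 3.55 in BaP-exposed mice by title, and the groups lay apart in the second row too (4.20 and 4.14 in Control 3 and 4, 3.35 and 3.55 in BaP 3 and 4), and the choroid plexus list (12 genes) averaged 2.08 to 3.95 in Control and 1.55 to 5.08 in BaP-exposed mice.

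All 31 genes were measured on every array, with a Cy5 signal well above background in all 8 mice and no saturated or missing spot. All 22 identity genes were more abundant in hippocampus than in the reference in all 8 mice, as were *Gfap* and *Serpina3n*. The other 7 reactive genes, *Vim*, *Osmr*, *Cd44*, *S1pr3*, *Lcn2*, *Cp* and *Timp1*, were below the reference in all 8 mice. Over all named genes, 46.0% were above and 36.5% below the reference in every mouse. In Control mice the log2 ratio to the reference was 7.82 ± 0.11 (SD, n = 4) for *Mlc1*, 0.58 ± 0.16 for the gap junction gene *Gja1* and -4.39 ± 0.35 for *Vim*. These ratios compare a gene with itself in 2 RNAs, and they give no order of abundance between genes. For *Gjb6* and the brightest *Gfap* probe the reference signal was not well above background on any array, so their ratios to the reference are lower bounds. The reference was also dim for some further probes: it was well above background on 7 arrays for the second and 3 for the third probe of *Slc1a2*, 2 for the second of *Aqp4* and 5 for the third of *Gfap*.

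**Figure D1:**
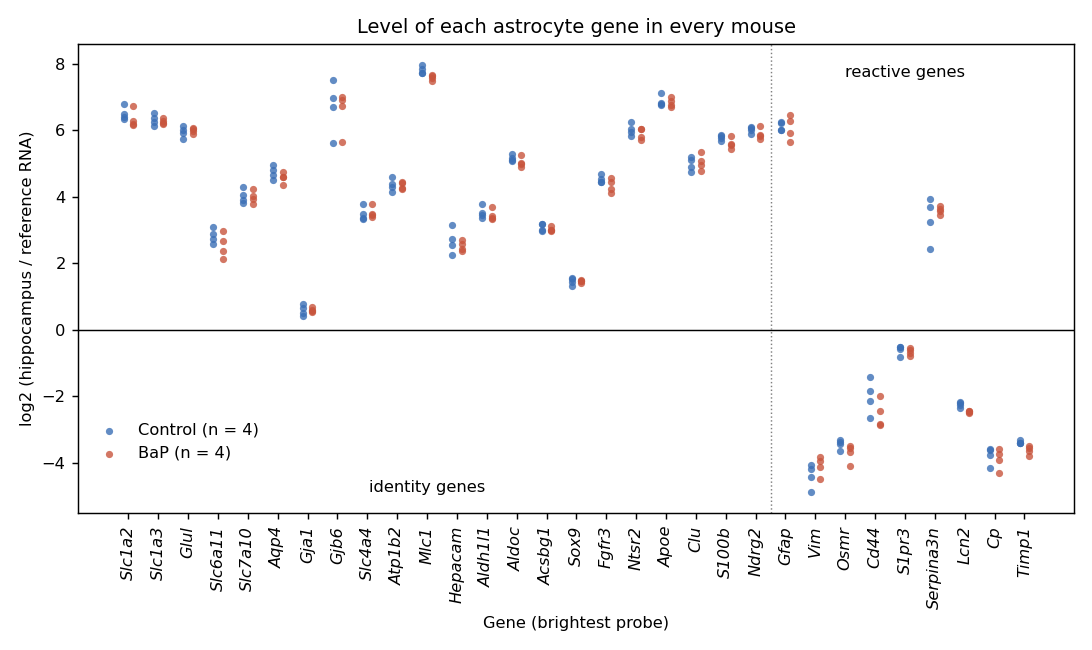
Level of the 31 astrocyte genes in every mouse, as the log2 ratio of hippocampus to reference RNA, with Control mice in blue and BaP-exposed mice in red (n = 4 each). Identity genes, left of the dotted line, lie above 0 in all 8 mice, and 7 of the 9 reactive genes lie below 0 in all 8.

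The question was whether 3 days of BaP changed the resting or the reactive program. Of the 31 genes, 0 were called in limma, and their adjusted p-values ran from 0.513 to 0.999. Differences are given as BaP minus Control in the log2 ratio to the reference. The difference largest in size was that of *Cd44*, at -0.53 on the log2 scale. In 24 of 31 genes the mean was lower in BaP-exposed mice, namely in 17 of 22 identity genes, with a median log2 fold change of -0.096, and in 7 of 9 reactive genes, with a median of -0.104; over all named genes the median was 0.00 and 7551 of 15090 were lower. *Mlc1*, *Lcn2* and *Timp1*, were lower in BaP-exposed mice without overlap between the groups, against 2.56% of all named genes, and 0 were higher without overlap, against 2.72%. The same 3 genes were those with an unadjusted limma p-value of at most 0.05; 4.37% of all named genes were lower and 5.07% higher at that threshold. For 26 of the 31 genes the 95% interval of the change stayed within 1.5-fold either way, which is 83.9% against 86.3% of all named genes. The exceptions were *Slc6a11*, *Gjb6*, *Vim*, *Cd44* and *Serpina3n*. This count rests on the brightest probes, and at the third probe of *Slc1a2* the interval also passed 1.5-fold, from -0.85 to -0.04.

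**Figure D2:**
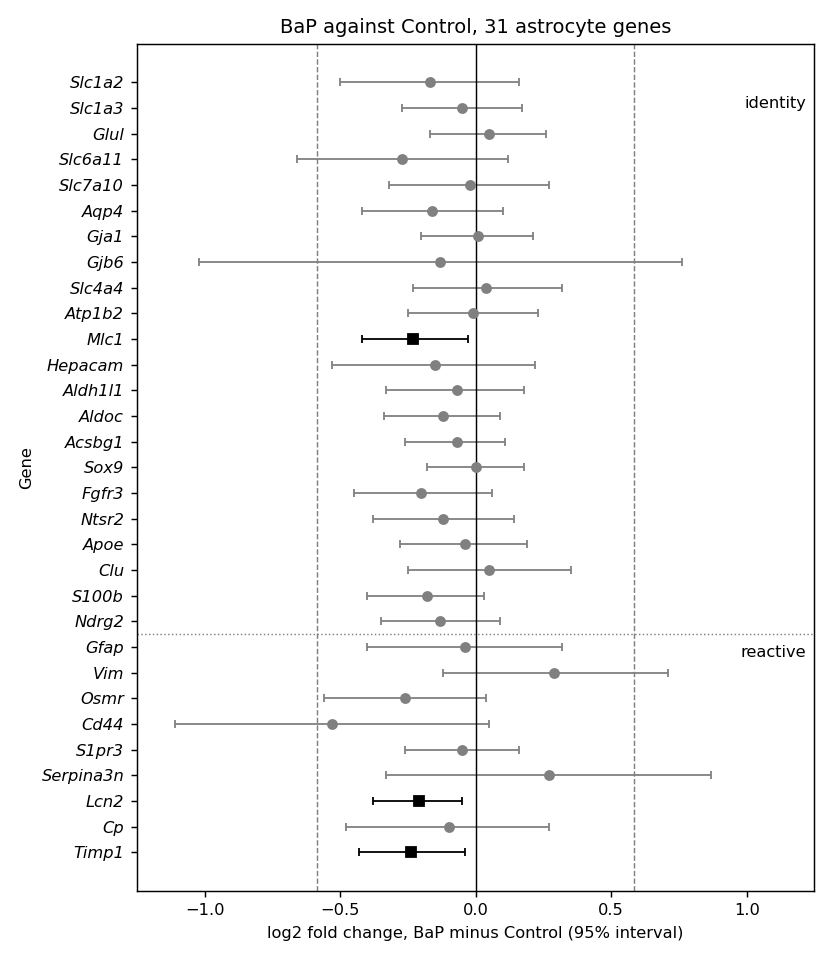
Log2 fold change (BaP minus Control) of each gene with its 95% interval from limma, n = 4 mice in each group; dashed lines mark 1.5-fold and black squares the genes whose groups did not overlap. Only the intervals of *Mlc1*, *Lcn2* and *Timp1* leave out 0, and all 3 lie below it.

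The medians turned positive under 1 choice of scaling. When each array was centered on its median without correction for intensity, the median of all probes moved to 0.167, the identity genes had a median of 0.153 and the reactive genes of 0.158, and 3 of the 31 genes were lower. Relative to all probes the medians were then -0.014 and -0.009, against -0.092 and -0.100 with the intensity-dependent correction. In the Cy5 channel alone, quantile-normalized between arrays, the identity median was -0.006 and the reactive median -0.066, and 19 of the 31 genes were lower. In the first slide row alone the identity median was -0.074 and the reactive median -0.200, and in the second row -0.104 and 0.008. With the groups of the source names they were 0.018 and -0.124.

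Among the 5 genes that clear and recycle transmitters, *Slc1a2* and *Slc1a3* encode the main astrocytic glutamate transporters. At its brightest probe *Slc1a2* was 6.35, 6.39, 6.81 and 6.49 in Control mice 1 to 4 and 6.28, 6.15, 6.18 and 6.75 in BaP-exposed mice 1 to 4. The groups overlapped through BaP 4 alone, and the difference was -0.17 ± 0.15 (SE, adjusted p = 0.752 in limma). The second probe of the gene gave 4.47, 4.51, 4.65 and 4.53 in Control and 4.45, 4.23, 4.17 and 4.37 in BaP-exposed mice. At this probe the groups did not overlap, with a difference of -0.24 ± 0.09 (SE, adjusted p = 0.528 in limma), and the third probe gave -0.45 ± 0.18 with overlap (adjusted p = 0.544 in limma). All 3 probes were thus lower on average, while which of them separated the groups differed. *Slc1a3* differed by -0.05 ± 0.10 (SE), and *Glul*, the glutamine synthetase gene, by 0.05 ± 0.10 (SE). The GABA transporter gene *Slc6a11* differed by -0.27 ± 0.18 (SE), with values of 2.57 to 3.08 in Control and 2.13 to 2.98 in BaP-exposed mice. *Slc7a10*, a transporter of small neutral amino acids, differed by -0.02 ± 0.13 (SE), by -0.384 with the scanner's processed signals and by 0.329 in the Cy5 channel alone. None of these 5 passed the test, and 4 of 5 were lower on average.

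The 7 genes of water, ion and junction proteins included *Mlc1*, a membrane protein of the astrocyte end-foot that works with the adhesion protein encoded by *Hepacam*. *Mlc1* was 7.72, 7.73, 7.96 and 7.86 in Control mice and 7.67, 7.48, 7.59 and 7.64 in BaP-exposed mice. The groups did not overlap, though BaP 1 came within 0.05 of Control 1. The difference was -0.23 ± 0.09 (SE), with an adjusted p of 0.529 in limma. The exact permutation p was 0.0286 (two-sided), the smallest that 4 against 4 mice allow. Any gene without overlap gives this p, so here, as for *Lcn2* and *Timp1*, it only restates the separation. The *Mlc1* difference was -0.156 in the first slide row and -0.296 in the second, and -0.087 in the Cy5 channel alone (adjusted p = 0.784 in limma). *Hepacam* differed by -0.15 ± 0.17 (SE), with its Control mice spread from 2.26 to 3.16 and overlapping the exposed mice. Its difference was -0.454 with the scanner's processed signals and 0.092 in the Cy5 channel alone. When 1 mouse at a time was left out it ran from -0.293 to 0.007. The water channel gene *Aqp4* differed by -0.16 ± 0.12 (SE) and, at its second probe, by -0.11 ± 0.10.

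The gap junction genes of astrocytes differed in spread. *Gja1* had values of 0.41 to 0.76 in Control and 0.52 to 0.67 in BaP-exposed mice and a difference of 0.01 ± 0.09 (SE). *Gjb6* was 5.61, 6.70, 7.52 and 6.97 in Control and 6.92, 6.74, 5.64 and 7.0 in BaP-exposed mice. One mouse of each group, Control 1 and BaP 3, lay more than 1 log2 unit below the rest of its group, and the difference of -0.13 ± 0.40 (SE) had the widest interval among the identity genes, from -1.02 to 0.76. It was 0.675 in the first slide row and -0.929 in the second, and -0.062 in the Cy5 channel alone. The bicarbonate cotransporter gene *Slc4a4* differed by 0.04 ± 0.12 (SE), and *Atp1b2*, a subunit of the sodium pump, by -0.01 ± 0.11 (SE).

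The other 10 identity genes gave differences between -0.20 and 0.05, and all overlapped between groups. The 3 metabolic genes were lower on average: *Aldh1l1*, a folate enzyme, by -0.07 ± 0.12 (SE), *Aldoc*, a glycolytic aldolase, by -0.12 ± 0.10, and *Acsbg1*, an acyl-CoA synthetase, by -0.07 ± 0.08. The transcription factor gene *Sox9* was 1.32 to 1.55 in Control and 1.40 to 1.5 in BaP-exposed mice, a difference of 0.00 ± 0.08 (SE). Its 95% interval ran from -0.18 to 0.18. The growth factor receptor gene *Fgfr3* differed by -0.20 ± 0.11 (SE) at the brightest probe and by -0.02 ± 0.20 at the second, and the neurotensin receptor gene *Ntsr2* by -0.12 ± 0.12. The lipoprotein genes *Apoe* and *Clu* differed by -0.04 ± 0.11 and 0.05 ± 0.13 (SE). Over the alternative settings *Apoe* ran from -0.096 to 0.222 and *Clu* from -0.23 to 0.318. *S100b*, a calcium-binding protein, differed by -0.18 ± 0.10 (SE, exact permutation p = 0.0857, two-sided), and *Ndrg2* by -0.13 ± 0.10.

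Across mice, the mean of the 22 identity genes was 4.61, 4.60, 4.89 and 4.70 in Control and 4.61, 4.53, 4.57 and 4.73 in BaP-exposed mice. The groups overlapped, with Control 3 the highest and BaP 2 the lowest. BaP 4 was the highest of the exposed mice, and without it 7 of the 31 genes were lower without overlap: *Slc1a2*, *Aldoc*, *S100b* and *Ndrg2* besides *Mlc1*, *Lcn2* and *Timp1*. In the same 7 mice 5.35% of all named genes were lower without overlap.

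*Gfap*, the classical gene of reactive astrocytes, showed no separation at any of its 3 probes. The brightest probe gave 6.26, 6.02, 6.22 and 6.02 in Control and 5.66, 6.28, 6.47 and 5.93 in BaP-exposed mice. The exposed mice included both the lowest and the highest value, and the difference was -0.04 ± 0.16 (SE, adjusted p = 0.956 in limma), with a 95% interval from -0.40 to 0.32. In the Cy5 channel alone, which does not use the reference, it was 0.056. The other 2 probes differed by -0.07 ± 0.11 and 0.04 ± 0.09 (SE). *Vim*, which encodes the partner filament vimentin, was -4.07, -4.44, -4.19 and -4.88 in Control and -4.49, -3.83, -3.95 and -4.14 in BaP-exposed mice. The groups overlapped, and the difference was 0.29 ± 0.19 (SE, adjusted p = 0.660 in limma). It was 0.098 in the first slide row and 0.490 in the second, 0.134 without Control 4, and -0.196 with the groups of the source names.

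The receptor and adhesion genes were lower on average, with overlap. *Osmr*, the receptor of oncostatin M, was -3.39, -3.32, -3.44 and -3.66 in Control and -4.10, -3.50, -3.69 and -3.56 in BaP-exposed mice, a difference of -0.26 ± 0.14 (SE). Only Control 4 lay within the range of the exposed mice. By slide row the difference was -0.444 and -0.074, and without BaP 1 it was -0.13. *Cd44*, the hyaluronan receptor, was -1.43, -2.14, -1.83 and -2.65 in Control and -2.84, -2.87, -2.46 and -2.0 in BaP-exposed mice. Its difference of -0.53 ± 0.26 (SE, adjusted p = 0.590 in limma) was -0.37 ± 0.16 at the second tested probe (adjusted p = 0.553 in limma), and both overlapped between groups. By slide row the difference of *Cd44* at the brightest probe was -1.070 in the first and 0.008 in the second. *S1pr3*, a sphingosine-1-phosphate receptor, differed by -0.05 ± 0.09 (SE).

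*Vim*, *Cp* and *Cd44* are also expressed outside astrocytes, and their order across mice is set beside 2 marker lists. The choroid plexus list was lowest in BaP 1 (1.55) and Control 4 (2.08), and the meningeal fibroblast list was lowest in the same mice, at -1.41 in each. *Vim* and *Cp* were lowest in these same 2 mice, and for *Cd44* these were 2 of the lowest 3, the lowest being BaP 2, where the choroid plexus list was at 4.60. *S1pr3*, the mean of the 9 reactive genes (-1.49 in BaP 1 and -1.35 in Control 4) and the endothelial list (1.76 and 1.72) were also lowest in BaP 1 and Control 4, as were the lists of other pan-reactive genes, of genes induced by neuroinflammation and by ischemia, and of reactivity signals. The part of other cells in these values was not tested. Without both mice *Vim* differed by 0.262, *Cp* by -0.090 and *Cd44* by -0.644. When 1 mouse at a time was left out, *Cp* ran from -0.228 to 0.034 and so changed sign, while *Vim* and *Cd44* kept theirs.

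**Figure D3:**
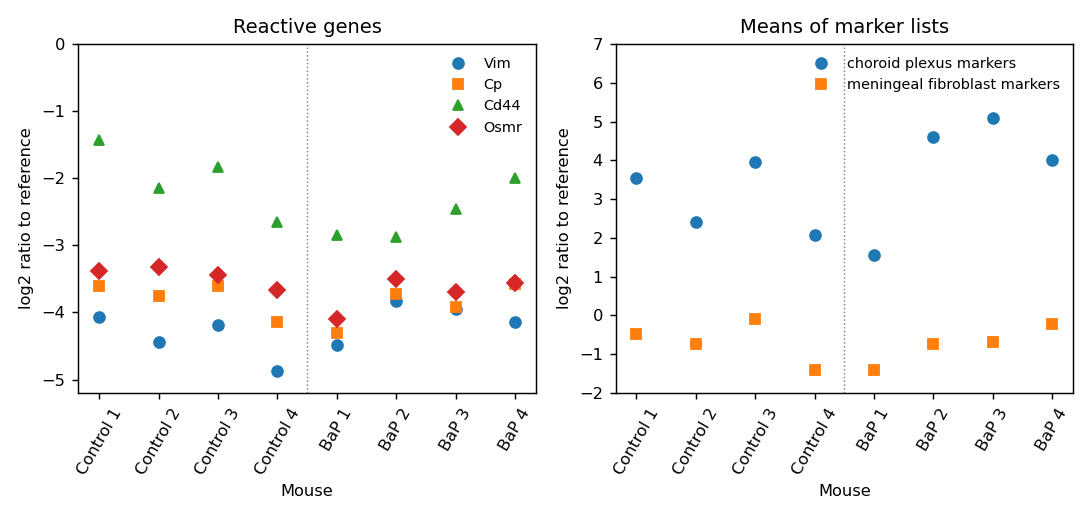
Log2 ratio to the reference in each mouse for *Vim*, *Cp*, *Cd44* and *Osmr* (left) and for the mean of the choroid plexus and meningeal fibroblast marker lists (right), with the dotted line between Control and BaP-exposed mice. Control 4 and BaP 1 are the lowest mice of both marker lists and of *Vim* and *Cp*.

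Of the 4 secreted proteins, *Lcn2* and *Timp1* were lower in every BaP-exposed mouse. *Lcn2*, lipocalin 2, an iron-scavenging acute-phase protein, was -2.18, -2.36, -2.21 and -2.28 in Control and -2.47, -2.46, -2.51 and -2.44 in BaP-exposed mice. All 4 exposed mice were below the lowest Control mouse, Control 2, and the difference was -0.21 ± 0.07 (SE, exact permutation p = 0.0286, two-sided, adjusted p = 0.513 in limma). *Timp1*, an inhibitor of matrix metalloproteinases, was -3.32, -3.41, -3.41 and -3.41 in Control and -3.64, -3.55, -3.81 and -3.49 in BaP-exposed mice. The groups were 0.08 apart at their nearest values, and the difference was -0.24 ± 0.09 (SE, exact permutation p = 0.0286, two-sided, adjusted p = 0.523 in limma). The first and the second slide row gave -0.200 and -0.227 for *Lcn2* and -0.234 and -0.238 for *Timp1*. With the groups of the source names the differences were 0.014 for *Lcn2*, 0.002 for *Timp1* and 0.070 for *Mlc1*, and with centering on the array median, which moved all probes up, they were 0.063, 0.046 and 0.040, or -0.10, -0.12 and -0.13 relative to the median of all probes. With the authors' ratios, without background correction, with the scanner's processed signals and in the quantile-normalized Cy5 channel alone, *Lcn2* and *Timp1* but not *Mlc1* were lower without overlap. These were 2 of the 31 genes, against 2.61%, 2.08%, 2.11% and 1.7% of all named genes in the same settings. With only the array median taken off, the Cy5 signal overlapped between the groups for *Lcn2* (difference -0.03), *Timp1* (0.0) and *Mlc1* (0.06).

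The other 2 secreted proteins did not separate the groups. *Serpina3n*, an acute-phase serine protease inhibitor, was 2.42, 3.25, 3.93 and 3.70 in Control and 3.57, 3.72, 3.62 and 3.46 in BaP-exposed mice. Control 1 lay below all others, and the difference was 0.27 ± 0.27 (SE, adjusted p = 0.784 in limma) and -0.033 without that mouse. By slide row it was 0.812 in the first and -0.273 in the second. *Cp*, ceruloplasmin, a copper-carrying ferroxidase, was -3.61, -3.76, -3.60 and -4.15 in Control and -4.30, -3.73, -3.92 and -3.58 in BaP-exposed mice, a difference of -0.10 ± 0.17 (SE) with overlap.

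**Figure D4:**
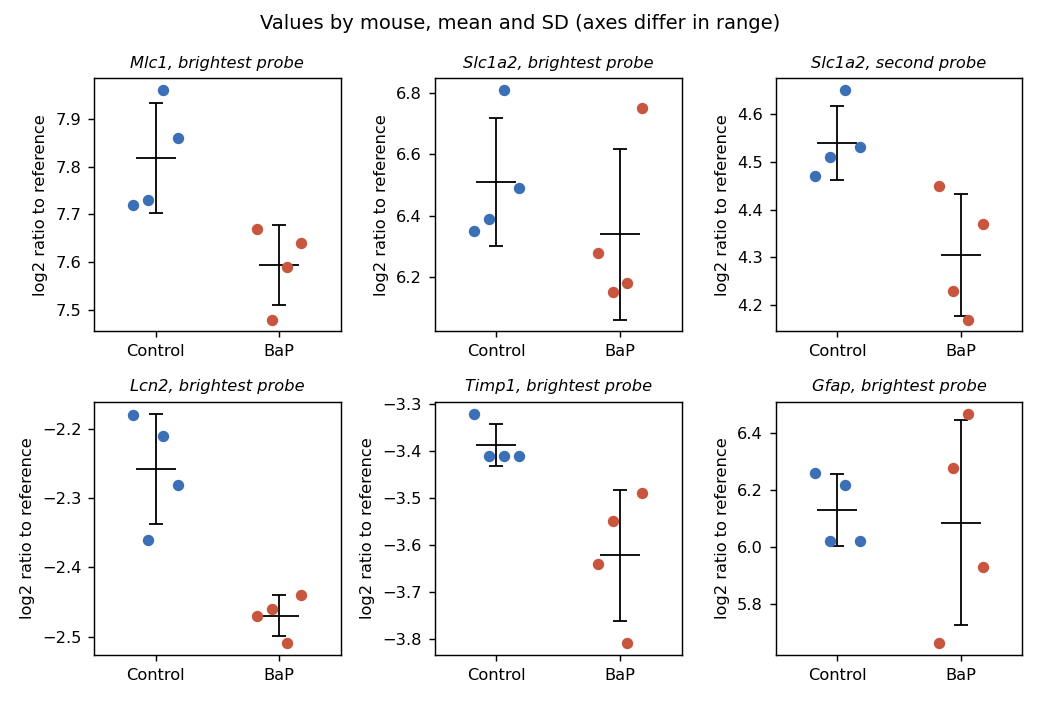
Log2 ratio to the reference in each mouse for 6 probes, with the mean and SD of the 4 Control and 4 BaP-exposed mice; each panel has its own axis range. The groups are separate for *Mlc1*, the second *Slc1a2* probe, *Lcn2* and *Timp1*, and overlap for the brightest *Slc1a2* probe and for *Gfap*.

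Promoters are shown for the 3 genes without overlap and for *Gfap*, with the motifs of factors that drive astrocyte and reactive genes. RefSeq promoters (GRCm38.p6) were at hand for 27 of the 31 genes, 6 of them with several start sites, and were searched on both strands from 250 bases before the start to 50 after it. The motifs were those of STAT (TTCNNNGAA), AP-1 (TGANTCA), C/EBP (TTGCNNAA), the NFI half-site (TTGGCA) and the AHR response element (TNGCGTG), AHR being the receptor that BaP activates. *Gfap* is shown from 15 bases before to 15 after its start (chr11:102897186-102897215, minus strand), around its STAT match at -2 to 7, and the others as the 250 bases before the start, with matches in capitals. *Mlc1* (chr15:88978554-88978803, minus strand) has a C/EBP match on the opposite strand at -150 to -143. *Lcn2* (chr2:32387740-32387989, minus strand) has a C/EBP match at -216 to -209 and, on the opposite strand, an NFI half-site at -166 to -161, and *Timp1* (chrX:20869916-20870165, plus strand) has no match, so it holds no capitals.
Gfap: tcaatgggggtgcTTCCAGGAAgtcagggg
Mlc1: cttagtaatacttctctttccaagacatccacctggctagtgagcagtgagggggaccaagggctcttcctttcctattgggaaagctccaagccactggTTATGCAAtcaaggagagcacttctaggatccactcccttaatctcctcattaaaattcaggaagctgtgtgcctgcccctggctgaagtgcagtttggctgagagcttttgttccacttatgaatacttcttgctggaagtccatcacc
Lcn2: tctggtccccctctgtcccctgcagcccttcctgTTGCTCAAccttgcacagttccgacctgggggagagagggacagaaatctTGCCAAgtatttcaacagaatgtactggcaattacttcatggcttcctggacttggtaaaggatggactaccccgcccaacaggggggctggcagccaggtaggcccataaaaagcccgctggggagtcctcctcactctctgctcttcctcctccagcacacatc
Timp1: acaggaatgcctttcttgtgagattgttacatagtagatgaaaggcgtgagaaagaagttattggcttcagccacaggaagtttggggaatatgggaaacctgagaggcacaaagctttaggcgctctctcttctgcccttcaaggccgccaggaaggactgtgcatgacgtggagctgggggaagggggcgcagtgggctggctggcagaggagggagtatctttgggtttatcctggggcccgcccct

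Over all promoters of this length the share with a match was 8.3% for STAT, 7.8% for AP-1, 10.8% for C/EBP, 14.1% for the NFI half-site and 5.1% for the AHR response element. Counted over genes, any of whose start sites could hold the match, the shares were 9.6%, 9.0%, 12.2%, 16.1% and 5.8%. A STAT match lay in 4 of 18 identity genes (*Acsbg1*, *Aldoc*, *Ntsr2* and *Slc1a3*) and in 1 of 9 reactive ones (*Gfap*). C/EBP matches lay in 4 identity genes (*Acsbg1*, *Aldh1l1*, *Mlc1* and *Slc1a2*) and in *Cp* and *Lcn2*, and AP-1 matches in *Gja1*, *Cp* and *Osmr*. NFI half-sites lay in 4 identity genes (*Aldoc*, *Apoe*, *Hepacam* and *S100b*) and in *Lcn2* and *Osmr*. The AHR response element was found in 0 of the 27 genes. These are letter matches only.

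Genes of the same programs outside the 31 were examined in 5 further lists. Of 50 other astrocyte genes, all tested, 34 were lower and 16 higher on average, with a median of -0.037, and 0 were called. Lower without overlap were 3: *Ppp1r3c*, a glycogen-targeting phosphatase subunit, *Sparc*, a matrix protein, and *Cbs*, an enzyme of sulfur amino acid metabolism. Over all named genes 2.56% were lower without overlap. At an unadjusted limma p-value of at most 0.05, 7 of the 50 were lower and 1 higher, against 4.37% and 5.07% of all named genes. *Ppp1r3c* was 5.22, 5.26, 5.4 and 5.4 in Control and 5.06, 4.82, 4.87 and 5.00 in BaP-exposed mice, a difference of -0.38 ± 0.09 (SE, adjusted p = 0.381 in limma). *Sparc* differed by -0.23 ± 0.08 (SE, adjusted p = 0.514 in limma) and *Cbs* by -0.24 ± 0.08 (SE, adjusted p = 0.515 in limma).

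Of 13 other pan-reactive genes, 12 were tested and 9 were lower, with a median of -0.160. *Socs3*, a feedback inhibitor of JAK/STAT signaling, was -1.48, -1.50, -1.53 and -1.39 in Control and -1.80, -1.60, -1.98 and -1.55 in BaP-exposed mice. Its groups did not overlap, and the difference was -0.25 ± 0.10 (SE, adjusted p = 0.544 in limma). *Cebpd*, which encodes a C/EBP transcription factor, went the other way: it was -1.53, -1.64, -1.84 and -1.95 in Control and -1.23, -0.76, -1.0 and -1.48 in BaP-exposed mice. This difference of 0.62 ± 0.16 (SE, adjusted p = 0.467 in limma) exceeded that of every one of the 31 genes in size, without overlap. These were 1 lower and 1 higher gene of 12, against 2.56% and 2.72% of all named genes.

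The tested genes linked to particular triggers overlapped between the groups. Of all named genes, 2.56% were lower and 2.72% higher without overlap, so 0 in lists this short is near that share. Of 12 genes induced by neuroinflammation 11 were tested, with 7 higher and a median of 0.079, and of 12 genes induced by ischemia 8 were tested, with 5 higher and a median of 0.052, and 0 of either list were without overlap. In the neuroinflammation list *Iigp1* (0.21), *Fkbp5* (0.26) and *Amigo2* (0.48) were higher at an unadjusted limma p-value of at most 0.05, 3 of 11 genes against 5.07% of all named genes, with adjusted p-values of 0.544, 0.553 and 0.557; they are named after their values were seen. Among 22 cytokines, receptors and signal transducers of reactivity, *Il6*, *Lif*, *Il1a*, *Il1b* and *Tnf* were not well above background on enough arrays to be tested. Of the 17 tested, 6 were higher and 11 lower, with a median of -0.072, and 0 were without overlap. The microglia list averaged 1.72 to 1.85 in Control and 1.75 to 1.86 in BaP-exposed mice.

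**Figure D5:**
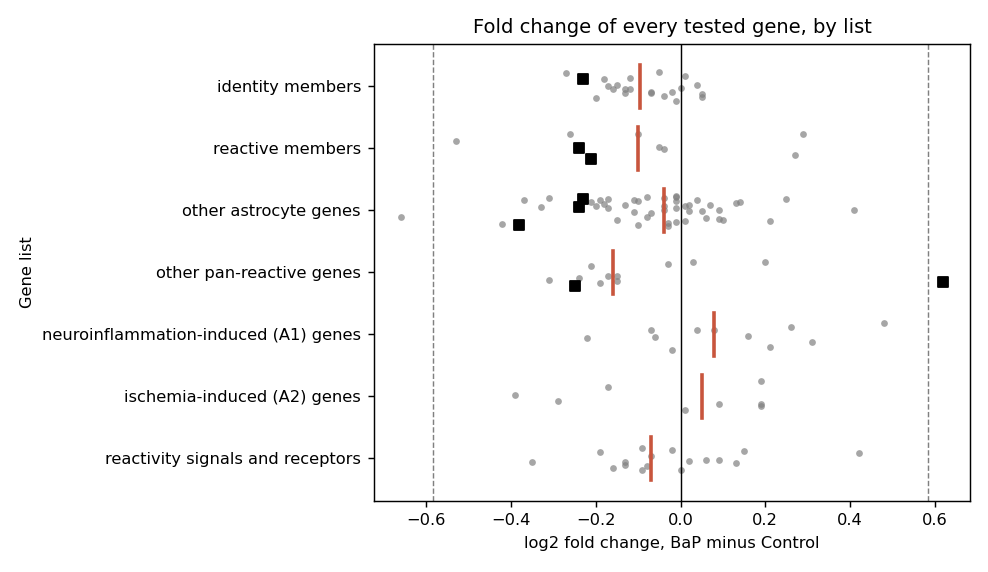
Log2 fold change (BaP minus Control) of every tested gene of the 22 identity genes, the 9 reactive genes and the 5 other lists; black squares mark genes whose groups did not overlap, red bars the list medians and dashed lines 1.5-fold. All medians lie between -0.160 and 0.079, and *Cebpd* is the highest point.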

How the data were processed

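Per the labels, 200 ng of total RNA of each mouse was labeled with Cy5 and hybridized with Cy3-labeled reference RNA on Agilent arrays, without dye swap. The deposited scanner files hold the intensity of each spot as median signals, extracted with Agilent Feature Extraction. The authors' deposited log2 ratios, LOWESS-normalized in R per their methods, were used as an alternative (column medians -0.0457 to -0.0343, correlation with the ratios used here 0.9980 to 0.9988). In R 4.3.3 with limma 3.58.1, median intensities were background-corrected (normexp, offset 50), control and outlier spots were left out, loess was applied within arrays, and spots of a probe were averaged. Of 55681 probes, 32600 with Cy5 well above background on at least 4 of 8 arrays were tested by lmFit and eBayes with Benjamini-Hochberg adjustment; calls needed an adjusted p of at most 0.05 and 1.5-fold. Of 28685 probes with a RefSeq accession, 27235 were named through RefSeq (GRCm38.p6). The brightest tested probe stood for a gene. Exact permutation tests used all 70 assignments.

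Precision was limited by 4 mice per group, which the design text calls biological replicates. The direction of ratios follows the dyes in the labels. All 31 genes are named, and of the astrocyte, reactivity and signal lists the genes whose groups did not overlap, by lowest unadjusted p; *Iigp1*, *Fkbp5*, *Amigo2* and *Grik4* were named after their values were seen. The 31 genes and the lists were chosen with earlier results of these data known. Alternatives changed the background correction, normalization, probe filter, outlier spots, variance model, blocks, probes, mice and labels.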

Additional observations from a re-analysis of the deposited data

Results flagged for a closer look

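In 62 groups of 4 mice (31 genes, 2 groups), 3 single mice lay far from the rest of their group by Dixon's test, where chance gives about 1 in 20, or 3.1. For *Timp1*, Control 1 was at -3.32 and the remaining Control mice at -3.41, so that 0.942 of the spread within the group came from that mouse. For *Apoe* the corresponding share was 0.847, with Control 3 at 7.14 and the rest at 6.78 to 6.84. For *S1pr3* it was 0.838, with Control 4 at -0.82 and the rest at -0.57 to -0.52.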

How the results depend on the processing

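In 25 alternatives the number of astrocyte genes called was 0, and the lowest adjusted p of any of the 31 was 0.236. For the 28 genes whose groups overlapped, 658 of 700 values moved by less than the spread between mice and 42 by more. *Mlc1*, *Lcn2* and *Timp1* kept their direction in 69 of 75. These counts include alternatives that changed only the probe filter, the variance model or the blocks. Such alternatives could not move a difference here, so their agreement was fixed in advance. In all, 106 of 775 values changed sign, including those that the shift of all probes turned. Centering on the array median gave 0.153 for the identity and 0.158 for the reactive median. In that setting 0 genes were lower without overlap, and the share of all named genes was not computed. *Mlc1* was at 0.040, *Lcn2* at 0.063 and *Timp1* at 0.046. All probes then had a median of 0.167, relative to which the 3 genes were at -0.13, -0.10 and -0.12. Grouping by source name gave 0 probes called and 0 genes lower without overlap, a count for which the share of all named genes was not computed either. *Mlc1* was then at 0.070, *Lcn2* at 0.014 and *Timp1* at 0.002. The number of all probes called was 3, against 6 in the Cy5 channel alone, 5 without the filter on dim probes, 0 with the scanner's processed signals, with the gene-wise F test and in either slide row alone, and 1 without Control 4 and BaP 1 together, a setting chosen after seeing the data. Leaving out 1 mouse at a time gave 1 to 3 probes called (1 without BaP 2, Control 1, Control 3 or Control 4). It gave 3 to 7 genes lower without overlap (7 without BaP 4, against 5.35% of all named genes). The identity medians were -0.158 to -0.036 and the reactive medians -0.222 to -0.007. Same-numbered mice did not deviate together (correlations -0.354 to 0.031), so the numbers did not pair them. With a replicate block 3 probes were called. The medians stayed at -0.096 and -0.104, which was fixed in advance because each block holds a mouse of each group. The causes of these differences were not tested. At the brightest probe the 95% intervals of 26 of the 31 genes stayed within 1.5-fold.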
